A study of Mus musculus with 8 samples.

Results

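The genes described here are 9 members of the ERK cascade: the kinases Mapk3, Map2k1 and Map2k2, the dual-specificity phosphatases Dusp4, Dusp5 and Dusp6, and the sprouty genes Spry1, Spry2 and Spry4. They were chosen by name, 9 of the 54532 genes in the count table, and 8 of them had enough counts to be tested. RNA was sequenced in 4 libraries of MTP KO and 4 libraries of WT MA-10 cells, a mouse Leydig tumour line that secretes progesterone when cAMP rises. The KO line was made with CRISPR/Cas9 against Mttp, which encodes microsomal triglyceride transfer protein (MTP), and was grown from single clones. The sources used here do not give which clone was sequenced. Loss of Mttp and differences that come with a clone cannot be told apart in this contrast. After 48 h in culture, KO and WT cells alike received 0.5 mM 8-BrcAMP, a cAMP analog that enters cells, and RNA was taken 3 h later, so no library shows unstimulated cells. In the labels the genotype entry is wild type for each of the 8 libraries, so the grouping rests on their titles.

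In the ERK cascade, receptors and RAS activate RAF kinases, RAF phosphorylates the MEK kinases, and MEK phosphorylates the ERK kinases, which enter the nucleus and change transcription. Active ERK also raises the RNA of its own brakes: DUSP phosphatases remove the activating phosphates from ERK, and sprouty proteins act further up, between receptor and RAF. In Leydig cells the cascade is switched on by luteinizing hormone and cAMP, and it is known for its part in acute steroid production.

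Promoter sequence was matched for 6 of the 9 genes (RefSeq, GRCm38.p6, 250 bases before to 50 bases after the start site). No window was available for Mapk3, Dusp4 and Spry4, so Spry4, which was also called, was not searched. The windows of Map2k1 and Dusp5 are shown because both genes were called between KO and WT cells, though Dusp5 kept its call in only 6 of 18 alternatives. Among these 6 windows they alone held TGACG, the half-site of the cAMP response element, on either strand. KO and WT cells alike had been given a cAMP analog, so the contrast does not test a response to cAMP. Every motif was searched on both strands, and TGACG is part of the full element TGACGTCA. Capitals mark TGACG and its reverse complement CGTCA.
Map2k1: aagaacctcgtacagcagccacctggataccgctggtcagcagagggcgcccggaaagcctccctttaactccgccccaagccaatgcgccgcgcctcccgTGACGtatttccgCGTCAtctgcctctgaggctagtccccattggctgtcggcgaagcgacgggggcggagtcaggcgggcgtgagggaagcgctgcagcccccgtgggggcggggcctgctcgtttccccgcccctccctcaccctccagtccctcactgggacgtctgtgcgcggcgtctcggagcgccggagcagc
Dusp5: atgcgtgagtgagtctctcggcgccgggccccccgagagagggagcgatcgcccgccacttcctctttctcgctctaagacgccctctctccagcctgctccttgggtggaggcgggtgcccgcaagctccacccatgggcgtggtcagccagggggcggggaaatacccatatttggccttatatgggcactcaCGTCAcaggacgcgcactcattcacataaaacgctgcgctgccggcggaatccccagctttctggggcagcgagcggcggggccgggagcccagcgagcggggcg
The Map2k1 window lies on the minus strand at chr9:64253556-64253855 and has the letters at -149 to -145 and, on the other strand, at -136 to -132. The Dusp5 window lies on the plus strand at chr19:53528895-53529194 and has them once, at -55 to -51 on the opposite strand. TGACG was found in 20.8% of 32851 RefSeq promoter windows of the same length. None of the 6 windows held the full element TGACGTCA (1.79% of all windows), the ETS motif CCGGAAGT (3.89%), the AP-1 motif TGANTCA (7.81%) or the sterol motif TCACNCCAC (1.24%). These are letter matches and not measured sites.

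The libraries held 14927989 to 18394797 counts in KO cells and 15075610 to 16321292 in WT cells (2-sided exact permutation p = 0.2). Mttp, the targeted gene on chromosome 3, had 5.09, 4.52, 6.75 and 7.13 CPM (counts scaled to one library size by TMM) in KO libraries 1 to 4, against 12.9, 11.9, 13.3 and 14.4 CPM in WT libraries, a log2 fold change of -1.15 (SE 0.135, edgeR adjusted p = 4.45e-06). Of 6 Leydig markers tested 4 were higher and none lower, where 21.7% of all tested genes were higher and 21.1% lower. The most abundant marker, Star, which carries cholesterol into mitochondria, averaged 5290.0 CPM in KO cells and 5685 CPM in WT cells. Star was not among the 4 and was not called (log2 fold change -0.10, edgeR adjusted p = 0.122). Summed markers of other cell types stood at 359 to 406 CPM in KO and 222 to 241 CPM in WT libraries for Sertoli cells, mostly from Rhox5, at 100.3 to 120 CPM in KO and 182 to 210 CPM in WT for endothelial cells, mostly from Cdh5. They stood at 12.3 to 15.7 CPM in KO and 20.5 to 26.5 CPM in WT for macrophages, at 11.1 to 13.0 CPM in KO and 22.7 to 24.5 CPM in WT for stroma, and at 2.90 to 4.81 CPM in KO and 1.56 to 4.16 CPM in WT for germ cells. Of these lists Cldn11 (Sertoli), Adgre1 and Ptprc (macrophage) and Dcn (stroma) had no count in any library. Mitochondrially encoded genes took 4.92% to 6.16% of counts in KO and 3.65% to 4.80% in WT libraries (exact permutation p = 0.0286, the smallest that 4 against 4 can give), and the part of these differences in the results was not tested. The study describes its libraries as biological replicates, but the labels do not tie each library to a culture of its own, so p-values measure the spread between these libraries.

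A gene was called when its Benjamini-Hochberg adjusted p in edgeR's quasi-likelihood test, taken over 13185 genes, was below 0.05. Of the 8 tested genes, Dusp5 was called higher and Map2k1 and Spry4 lower in KO cells, and 5 were not called. Over all tested genes 21.7% were called higher and 21.1% lower, so these counts of 1 higher and 2 lower among 8 are near the background. With a log2 fold change of 0.5 also asked for, none of the 8 was higher (7.36% of all genes) and Spry4 was lower (8.44% of all genes). KO and WT libraries did not overlap for Map2k1, Dusp6 and Spry4, as for 38.6% of all tested genes. The median log2 fold change was -0.10 over the 8 genes and -0.0019 over all tested genes.

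**Figure D1:**
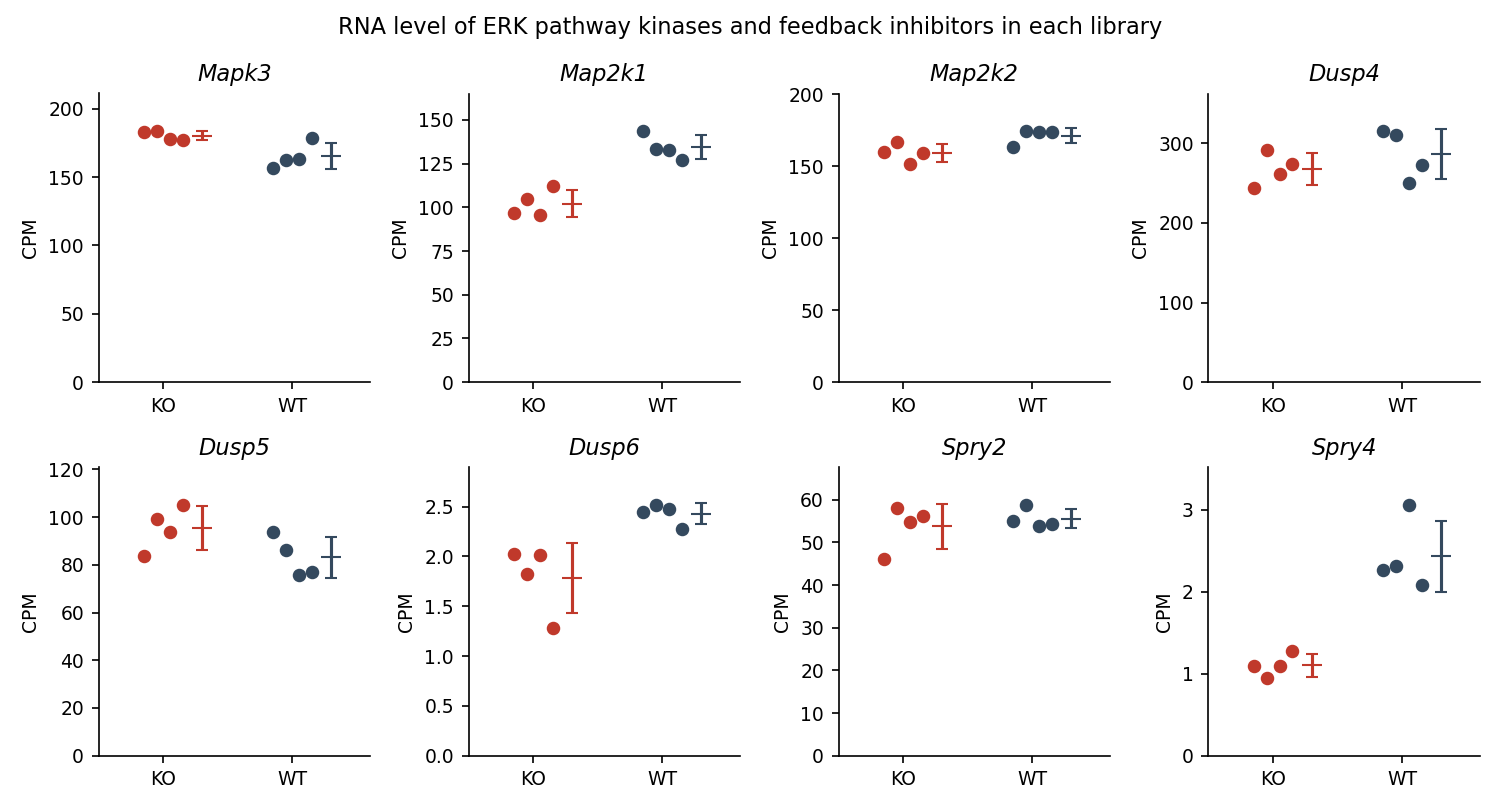
RNA level in CPM (y axis, from 0) of the 8 tested genes in KO and WT libraries (points), with mean ± SD beside them (n = 4 each). All Map2k1 and Spry4 points of KO cells lie under those of WT cells, while Dusp4 and Spry2 points overlap.

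Per length, in TPM, the genes fell into abundant ones and others near the limit of detection. Dusp4 was highest, at 261 ± 25.2 TPM in KO and 279 ± 37.1 TPM in WT cells (SD, n = 4 each), and the ERK kinase Mapk3 came next at 213 ± 6.32 TPM in KO and 195 ± 3.65 TPM in WT cells. Dusp5, Map2k1, Map2k2 and Spry2 followed, with group means of 68.9 to 106 TPM. Dusp5 was above Map2k1 in each KO library (103 ± 11.7 TPM for Dusp5 and 80.5 ± 6.87 TPM for Map2k1) and below it in each WT library (89.6 ± 11.9 TPM for Dusp5 and 106 ± 9.01 TPM for Map2k1). Map2k2 at 75.2 ± 3.58 TPM in KO and 80.5 ± 2.52 TPM in WT cells and Spry2 at 68.9 ± 8.41 TPM in KO and 70.8 ± 4.51 TPM in WT cells came next. Their libraries overlapped in KO cells, while in WT cells every Map2k2 value was above every Spry2 value. Far lower came Dusp6, at 1.52 ± 0.295 TPM in KO and 2.06 ± 0.159 TPM in WT cells, and Spry4, at 0.641 ± 0.0772 TPM in KO and 1.41 ± 0.269 TPM in WT cells, while Spry1 had no count in any library.

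Mapk3 encodes ERK1, 1 of the kinases at the end of the cascade, and lies on chromosome 7 (126759601 to 126765819, GRCm38). It had 183, 184, 178 and 177 CPM in KO libraries 1 to 4, against 157, 162, 163 and 179 CPM in WT libraries. KO libraries lay in a narrow band that only WT library 4 reached. The log2 fold change of 0.12 (SE 0.0495, 95% interval 0.02 to 0.23, a change of 9.03%) missed the threshold, with an edgeR adjusted p of 0.0534. Without WT library 4 it was 0.17 and passed (edgeR adjusted p = 0.00901), and it also passed with DESeq2, limma voom, DESeq2 size factors or protein-coding genes alone.

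Map2k1 encodes MEK1, the kinase that phosphorylates ERK, and lies on chromosome 9 (64185770 to 64253631). It fell by 24.0% in KO cells. Its levels were 96.5, 105, 95.4 and 112 CPM in KO libraries 1 to 4, against 144, 134, 133 and 127 CPM in WT libraries. Every KO library was under every WT library. The means were 102 ± 7.75 CPM in KO and 134 ± 6.85 CPM in WT cells, a log2 fold change of -0.40 (SE 0.0593, edgeR adjusted p = 5.52e-05). All 18 alternatives kept the call, between -0.44 and -0.36. Whether counting used strand is not stated, and 3 genes overlap Map2k1 on the opposite strand. The most counted of them, Uchl4, had 10 to 31 counts a library, against at least 1553 for Map2k1.

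Its paralog Map2k2 (MEK2, chromosome 10, 81105915 to 81133975) had 160.0, 167, 152 and 159 CPM in KO libraries, against 163, 174, 174 and 174 CPM in WT libraries. Only KO library 2 and WT library 1 crossed. The log2 fold change was -0.10 (SE 0.0476, 95% interval -0.21 to -0.0038, edgeR adjusted p = 0.0892), which was not called. Without WT library 1 it was -0.13 and passed (edgeR adjusted p = 0.0443).

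Taken per kilobase, Map2k1 made up 50.2%, 51.2%, 51.2% and 54.0% of MEK1 plus MEK2 RNA in KO libraries 1 to 4, against 59.5%, 56.1%, 56.1% and 54.9% in WT libraries. The groups did not overlap, though KO library 4 and WT library 4 differed by less than 1 percentage point. The mean share was 51.7 ± 1.65% in KO and 56.7 ± 1.96% in WT cells (SD, n = 4 each, 2-sided exact permutation p = 0.0286, adjusted p = 0.0357 over 5 shares). The MEK sum was 156 ± 9.51 TPM in KO and 186 ± 10.1 TPM in WT cells (exact permutation p = 0.0286). These shares and sums use the same counts as the tests of the single genes.

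**Figure D2:**
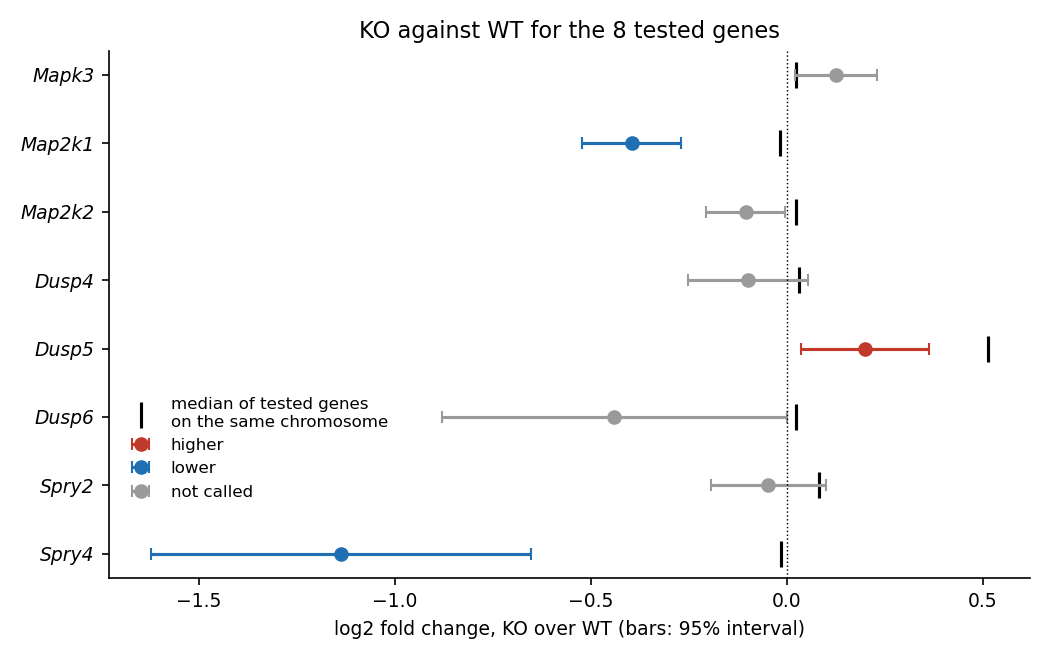
Log2 fold change of KO over WT (x axis) with 95% intervals for the 8 tested genes, coloured by call. Black ticks give the median of all tested genes on the same chromosome, which is 0.51 for Dusp5 (chromosome 19) and between -0.02 and 0.08 for the others.

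The DUSP phosphatases differ in place and level: Dusp4 and Dusp5 encode nuclear enzymes that are induced after stimulation, and Dusp6 encodes a cytoplasmic, ERK-selective one. Dusp4 (chromosome 8, 34807297 to 34819894) had 244, 291, 262 and 274 CPM in KO libraries, against 315, 310.3, 250.1 and 272 CPM in WT libraries. The groups overlapped over most of their range. Its log2 fold change was -0.10 (SE 0.0717, 95% interval -0.25 to 0.05, edgeR adjusted p = 0.286), so a fall of more than 0.25 lies outside the interval.

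Dusp5 (chromosome 19, 53529109 to 53542431) had 83.8, 99.2, 93.6 and 105 CPM in KO libraries, against 93.9, 86.1, 75.7 and 76.8 CPM in WT libraries. KO library 1 was under 2 WT libraries, so the groups overlapped. The mean was 14.8% higher in KO cells, a log2 fold change of 0.20 (SE 0.0771, 95% interval 0.03 to 0.36), and its edgeR adjusted p of 0.0484 only just passed. The call was lost with DESeq2 (adjusted p = 0.0518), with limma voom (adjusted p = 0.05003), with library totals in place of TMM (edgeR adjusted p = 0.0553), and when KO library 2, 3 or 4 or WT library 2, 3 or 4 was left out (log2 fold change 0.15 to 0.22, edgeR adjusted p = 0.0633 to 0.144).

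Chromosome 19 as a whole was shifted in KO cells: the median log2 fold change of its 446 tested genes was 0.51, and 77.1% of them were called higher. Among the 20 tested genes nearest to Dusp5, 10 on each side, 13 were called higher and 1 lower, with a median of 0.46. Dusp5 at 0.20 was under that median, and 14 of the 20 exceeded it. Measured against the chromosome's median, Dusp5 was at -0.31 and called lower (edgeR adjusted p = 0.0042). The rise of Dusp5 and the shift of its chromosome cannot be told apart in this contrast.

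**Figure D3:**
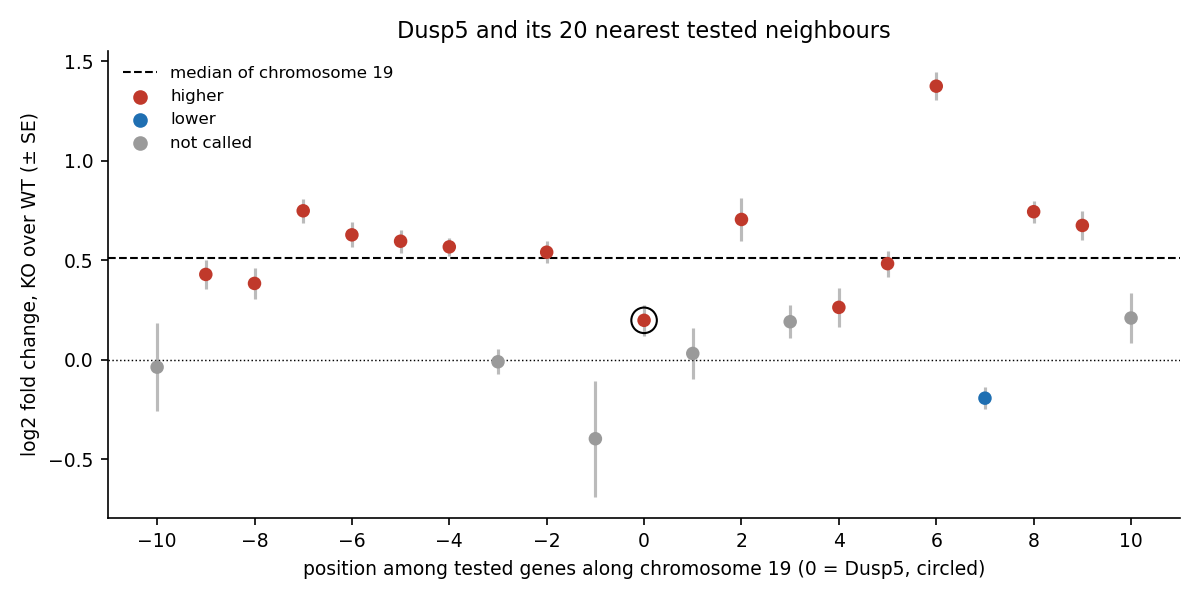
Log2 fold change of KO over WT (± SE, y axis) for Dusp5 (circled, at 0 on the x axis) and the 10 tested genes on each side of it along chromosome 19, coloured by call. Most neighbours lie above Dusp5 and near the dashed line, the chromosome's median of 0.51.

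Dusp6 (chromosome 10, 99263231 to 99267489), which in many cells is among the most ERK-responsive genes, was scarce in these cells. It had 2.02, 1.82, 2.01 and 1.28 CPM in KO libraries, against 2.45, 2.52, 2.48 and 2.27 CPM in WT libraries, from 21 to 40 counts a library. All KO values were under all WT values. The log2 fold change was -0.44 (SE 0.207, 95% interval -0.88 to -0.00021, edgeR adjusted p = 0.101), and no alternative called it.

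As shares of the sum of Dusp4, Dusp5 and Dusp6 per kilobase, which leaves out the other DUSP genes, Dusp4 took 71.4 ± 1.05% in KO and 75.3 ± 0.787% in WT cells, and Dusp5 28.2 ± 1.12% in KO and 24.2 ± 0.760% in WT cells (SD, n = 4 each, exact permutation p = 0.0286 and adjusted p = 0.0357 for each). No KO library overlapped a WT library in either share, although the 2 shares are nearly complements and so count as 1 observation. Dusp6 held 0.421 ± 0.104% in KO and 0.561 ± 0.0587% in WT cells (exact permutation p = 0.0571). The sum of these 3 genes was 366 ± 35.7 TPM in KO and 371 ± 48.7 TPM in WT cells (exact permutation p = 0.857).

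**Figure D4:**
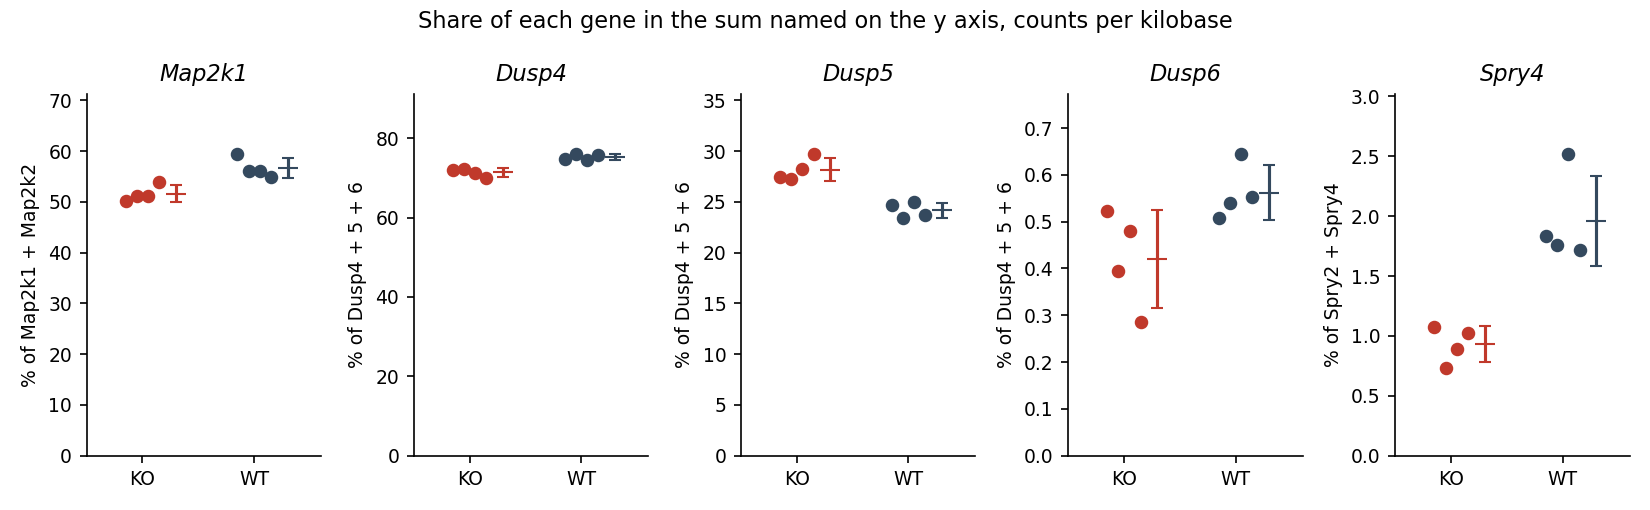
Share of each gene in the sum named on its y axis (percent of counts per kilobase, each panel from 0): Map2k1 plus Map2k2, Dusp4 plus Dusp5 plus Dusp6, or Spry2 plus Spry4, with other DUSP genes and Spry3 left out, in KO and WT libraries, with mean ± SD (n = 4 each). Map2k1, Dusp4, Dusp5 and Spry4 shares do not overlap between KO and WT, and Dusp6 shares do.

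Sprouty proteins are inhibitors of signalling from receptor tyrosine kinases. Spry1 (chromosome 3, 37639947 to 37644598) had 0 counts in all 8 libraries, which at the lowest depth allows up to 0.202 CPM (3 counts, counting error only). Spry2 (chromosome 14, 105891947 to 105896819) was the most abundant of these 3 sprouty genes, with 46.1, 58.0, 54.9 and 56.1 CPM in KO libraries, against 55.1, 58.9, 53.9 and 54.3 CPM in WT libraries. Apart from the low KO library 1, the groups covered the same range. Its log2 fold change was -0.05 (SE 0.0692, 95% interval -0.19 to 0.10, edgeR adjusted p = 0.62).

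Spry4 (chromosome 18, 38586268 to 38601268) changed most of the 8 genes and fell by 54.5% in KO cells. It had 1.10, 0.944, 1.09 and 1.28 CPM in KO libraries 1 to 4, against 2.26, 2.32, 3.06 and 2.08 CPM in WT libraries. The highest KO value was well under the lowest WT value, at a low level of 14 to 47 counts a library. The means of 1.10 ± 0.138 CPM in KO and 2.43 ± 0.433 CPM in WT cells gave a log2 fold change of -1.14 (SE 0.228, 95% interval -1.62 to -0.65, edgeR adjusted p = 0.00079). All 18 alternatives kept the call, between -1.21 and -1.003. Of the tested genes 4.51% had a larger absolute log2 fold change. As a share of Spry2 plus Spry4 RNA, with Spry3 left out, it was 0.932 ± 0.152% in KO and 1.96 ± 0.378% in WT cells (exact permutation p = 0.0286, adjusted p = 0.0357), while the sum of both was 69.6 ± 8.41 TPM in KO and 72.2 ± 4.55 TPM in WT cells (exact permutation p = 0.686).

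By log2 CPM over the 8 libraries, the protein-coding gene most like Map2k1 was Clstn3 (Pearson r = 0.993), the one most like Spry4 was Pygb (r = 0.993) and the one most like Dusp5 was Jarid2 (r = 0.975), out of 11562 genes compared. They describe 8 points that fall into KO and WT groups, and carry no test.

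On a list of genes that ERK is known to induce, most were lower in KO cells. KO and WT cells alike had been given the cAMP analog, and its part in the RNA of these genes was not tested. The list was chosen with earlier results of these data known, so its counts are a description and not an independent test. Of 17 such genes listed, 14 were tested, and 10 were lower, 1 higher and 3 not called, where 21.1% of all tested genes were lower, with a median log2 fold change of -0.64 against -0.0019 over all genes. Egr3, an early growth response factor, had 0.855 ± 0.242 CPM in KO and 2.87 ± 0.470 CPM in WT cells (log2 fold change -1.75, edgeR adjusted p = 4.23e-05). The receptor Epha2 had 18.2 ± 0.459 CPM in KO and 59.9 ± 5.50 CPM in WT cells (-1.71, edgeR adjusted p = 3.97e-11). The AP-1 subunit Fosl1 fell by 1.42 on the log2 scale, on chromosome 19 where most genes rose, and Phlda1 fell by 0.93. Further members, picked after their values were seen, were Myc (-0.74), Egr1 (-0.86) and Ier3 (-0.73), all lower, the cyclin Ccnd1 (0.34), the single higher one, and Fos. Fos had 87.4 ± 7.58 CPM in KO and 93.4 ± 6.09 CPM in WT cells (edgeR adjusted p = 0.265). RNA was read at 1 time, so the order of these changes within the 3 h is not shown. Phosphorylated ERK was not measured in these libraries. By western blot, the paper reports more phosphorylated ERK in KO than in WT cells given the cAMP analog, sooner after its addition than the RNA. How that rise relates to the lower RNA of most genes on this list was not tested.

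Other brakes of ERK or related kinase pathways were tested for all 20 listed genes, of which 6 were higher and 7 lower in KO cells (median log2 fold change 0.08). Over all tested genes 21.7% were higher and 21.1% lower. Errfi1, which inhibits the EGF receptor, fell to 173 ± 15.6 CPM in KO cells, against 435 ± 45.9 CPM in WT cells (-1.33, edgeR adjusted p = 1.41e-09). Rasa3, a GTPase-activating protein that switches off RAS-family proteins, was at 68.4 ± 2.61 CPM in KO and 25.8 ± 1.71 CPM in WT cells (1.41, edgeR adjusted p = 7.83e-11). Spry3, the remaining sprouty gene, rose by 0.94 on the log2 scale (53.5 ± 2.71 CPM in KO and 27.9 ± 2.24 CPM in WT cells), and Dusp8, a phosphatase for JNK and p38, by 0.88. Dusp1 (-0.48), Dusp10 (-0.51), Dusp16 (-0.45) and Dusp9 (-0.32), named after their values were seen, were lower. Spred2 (0.46), Spred1 (0.17) and Lztr1 (0.14), also named after their values were seen, were higher.

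Upstream of the members, 20 genes for RAS, RAF and adaptors were tested, and 6 were higher, 6 lower and 8 not called (median 0.0083). The shares of all tested genes, for these and for the scaffolds below, were 21.7% higher and 21.1% lower. Mras, which with Shoc2 helps to activate RAF, rose by 0.97 (30.6 ± 0.657 CPM in KO and 15.6 ± 1.46 CPM in WT cells, edgeR adjusted p = 5.06e-08). Shoc2 rose by 0.48 on chromosome 19, whose median was 0.51. The docking proteins Gab2 and Gab1 went opposite ways, at 0.52 and -0.38. Among 11 genes listed as scaffolds or binding partners of the cascade, 2 were higher and 3 lower, and the 4 with the largest change are named. Pebp1, which binds RAF and MEK, rose by 0.39 to 902 ± 28.4 CPM in KO cells, against 687 ± 57.5 CPM in WT cells. Erbin rose by 0.18, and Ksr2 (-1.28, under 4 CPM in every library) and Lamtor2 (-0.25, on chromosome 3 with a median of -0.22) fell.

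Receptors and ligands had 13 of 24 genes tested, with 6 higher and 4 lower (median -0.02). For this list and those that follow, the background over all tested genes was 21.7% higher and 21.1% lower. Fgfr2, a fibroblast growth factor receptor, was at 160.4 ± 6.25 CPM in KO and 70.1 ± 4.00 CPM in WT cells (1.19, edgeR adjusted p = 9e-11), while Met, the receptor of hepatocyte growth factor, was at 3.78 ± 0.633 CPM in KO and 9.28 ± 1.11 CPM in WT cells (-1.30, edgeR adjusted p = 2.66e-06). Pdgfra (1.65) and the ligand Btc (-1.48) also changed, at under 2 CPM in every library. Of 7 tested kinases that ERK activates, Mknk2, which phosphorylates the translation factor eIF4E, fell by 0.75 to 366 ± 26.0 CPM in KO cells, against 615 ± 54.0 CPM in WT cells (edgeR adjusted p = 1.61e-07), while Mknk1 (0.31) and Rps6ka4 (0.27, on chromosome 19) rose. In the p38, JNK and ERK5 branches 5 of 10 genes were higher and 1 lower (median 0.18), led by Map2k7 (0.36), Mapk7 (0.31), Mapk13 (0.30) and Mapk9 (0.29).

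**Figure D5:**
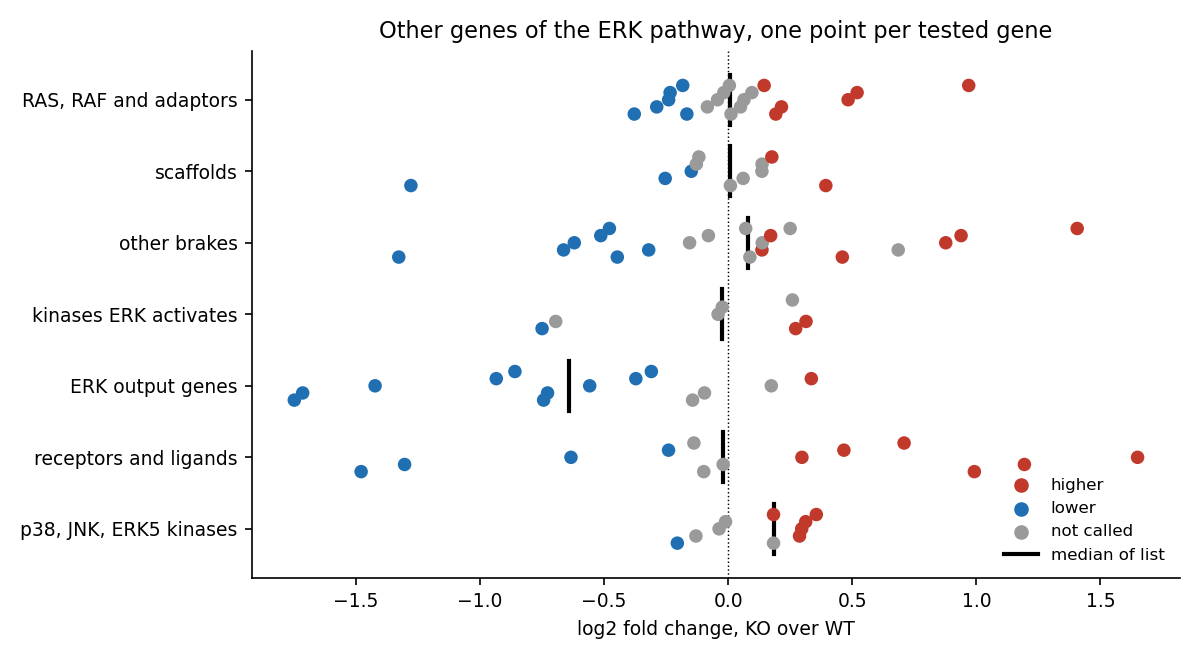
Log2 fold change of KO over WT (x axis) for each tested gene of 7 lists from the ERK pathway and its neighbours (rows), coloured by call, with the median of each list as a black bar. The ERK output genes have the lowest median, at -0.64, and the other lists have medians between -0.02 and 0.18. The lists were chosen with earlier results of these data known.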

How the data were processed

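For mRNA capture, the labels name oligo-T beads and the paper polyU columns. The authors deposited unnormalized read counts per gene for 8 libraries. The submitters' processing notes name HISAT2 2.0.5 and featureCounts 1.5.0-p3. Strand and multimapping settings: not given in the sources used here. Of 37704 gene symbols shared with RefSeq GRCm38.p6, 99.85% overlap its positions, so coordinates are those of GRCm38.

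The analysis ran in edgeR 4.0.16 (R 4.3.3): filterByExpr (minimum count 10, minimum total 15), TMM, and the quasi-likelihood F test with genotype as the only term, Benjamini-Hochberg adjusted over 13185 genes. TPM used the gene lengths of the table. Shares were compared by 2-sided exact permutation over 70 arrangements. The alternatives included DESeq2 1.42.0 and limma 3.58.1 voom. Figures used Python 3.11.15 and matplotlib 3.10.9.

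Members and lists were chosen with earlier results of these data known. Named genes were the members, Mttp, up to 4 called genes with the largest fold change per pathway list, the gene most like each called member and the most abundant marker of a cell type. Outside this rule, Myc, Egr1, Ier3, Ccnd1, Fos, Dusp1, Dusp9, Dusp10, Dusp16, Spred1, Spred2 and Lztr1 were named after their values were seen. So were genes that overlap a member and markers without counts. Counts of alternatives over the ERK output list were added after seeing the data. Some genes of the lists are counted but not named.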

Additional observations from a re-analysis of the deposited data

Results flagged for a closer look

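In 28 groups of 4 libraries that were searched, 2 held a library far from the other 3, and chance alone gives about 1 in 20. Map2k2 stood at 163 CPM in WT library 1, while the other WT libraries were at 174 CPM. The share of Spry4 in Spry2 plus Spry4 RNA was 2.52% in WT library 3, against 1.72% to 1.83% in the other WT libraries, from 33 to 47 counts of Spry4 in each.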

How the results depend on the processing

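Map2k1 and Spry4 kept their calls in all 18 alternatives, and Dusp4, Dusp6 and Spry2 were called in none. The number of members higher in KO cells was 2 with DESeq2 size factors or protein-coding genes alone, and 0 with library totals, at least 10 counts in every library, the replicate block, centring on chromosome medians or a log2 fold change limit of 0.5. When a library was left out it ranged from 0 to 1, and the number lower from 2 to 3. The number lower was 4 after centring and 1 with the limit of 0.5, which called 2083 genes in all. Mapk3 passed at 0.13 with DESeq2 size factors (adjusted p = 0.0453), DESeq2 (0.13, adjusted p = 0.0393), limma voom (0.13, adjusted p = 0.0453) and protein-coding genes (0.13, adjusted p = 0.0375). Map2k2 passed at -0.13 after centring (edgeR adjusted p = 0.0424). Dusp5 missed at 0.19 with library totals, 0.20 with DESeq2, 0.20 with limma voom, 0.19 with at least 10 counts (edgeR adjusted p = 0.0667), and turned to -0.31 after centring. Leaving out a library gave 0.10 to 0.17 for Mapk3, -0.13 to -0.080 for Map2k2 and 0.15 to 0.26 for Dusp5. The cause of these changes was not tested. The list of ERK output genes had 9 or 10 genes lower in every alternative, a count added after seeing the data, with a median between -0.69 and -0.56.

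Whether replicate numbers pair the libraries cannot be decided from 4 pairs. Deviations of same-numbered KO and WT libraries correlated at -0.15 to 0.04, and 2 of 4 KO libraries were most like their own number. With the replicate block Dusp5 was at 0.20 and not called (edgeR adjusted p = 0.101), and no other member's call changed. Dusp6 and Spry4 rest on 14 to 47 counts a library, which limits both.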
